A study of Mus musculus with 6 samples.

Results

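The genes described here are 10 enzymes of NAD synthesis and of the tryptophan pathway that feeds it. They were taken by symbol from a list of de novo, salvage and branch enzymes, and all 10 had a row among the 17684 genes of the table. The list was chosen with earlier results of these data known. NAD is the electron carrier of most oxidative reactions and is also consumed as a substrate by sirtuins, poly(ADP-ribose) polymerases and CD38. Cells build it de novo from tryptophan through kynurenine and quinolinate, from nicotinate, or by salvage of the nicotinamide that NAD-consuming enzymes release. In the kidney the de novo enzymes are known mainly from the proximal tubule, and loss of quinolinate phosphoribosyltransferase has been described in acute kidney injury.

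The study measured kidney RNA of db/db mice, which lack a working long form of the leptin receptor and become obese and diabetic, to ask how long-term statin treatment affects the diabetic kidney. The Db group was db/db mice of strain C57 BLKS/L, 50 weeks old, given normal saline for 40 weeks, with 3 libraries; the strain is spelled as in the labels, and the study's reporting form gives C57BLKS/J. The Db + Ato10 group was db/db mice of the same strain and age given atorvastatin, an inhibitor of cholesterol synthesis at HMG-CoA reductase, at 10 mg/kg.day for 40 weeks, also with 3 libraries. By the study's methods statins were given by oral gavage on 5 consecutive days a week, the mice were all male, and RNA was taken in week 40 of the course. Both groups were diabetic, so neither shows the level in a kidney without diabetes. Summed gene counts ran from 11381678 in Db replicate 2 to 14667909 in Db + Ato10 replicate 2. A total of 3 counts, used as the detection floor, was worth 0.198 to 0.260 CPM, the count per 1e6 library counts after TMM scaling, and floors and tests at this depth cover counting error and the spread between these libraries only.

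Certain libraries stood apart before any comparison of these genes. The 4 Y-linked genes listed as a check of sex, led by Eif2s3y, summed to 0.159 CPM in Db replicate 1, with Kdm5d and Uty at 0, against 132 and 115 CPM in Db replicates 2 and 3 and 135, 143 and 119 CPM in the Db + Ato10 libraries. Db replicate 1 thus went against the statement that the mice were all male. Db + Ato10 replicate 1 was set apart by neutrophil markers, which summed to 10856 CPM there, 108 CPM in Db + Ato10 replicate 2 and 11.7 CPM in Db + Ato10 replicate 3, against 5.88, 10.4 and 5.33 CPM in the Db libraries. Fold changes of the 10 genes are therefore also given without these libraries, while marker lists and transcripts are given by their values in each of the 6 libraries.

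With all 6 libraries, 0 of the 10 genes passed a fold change over 1.5 with an adjusted p under 0.05 in edgeR's quasi-likelihood test, and 0 of 10 had an unadjusted p under 0.05. Over all 13679 tested genes the first criterion took 0%, and the unadjusted one took 5.71% as lower and 11.2% as higher. DESeq2 also called 0 of the 10, against 1.29% of all tested genes called lower and 5.17% called higher, and gave 1, Acmsd, an unadjusted p under 0.05 as lower, as it did for 6.24% of all tested genes. The fold change was below 0 for 9 of the 10 genes, with Qprt the exception, whose sign changed with the scale and the model, and for 50.6% of all tested genes. The median log2 fold change was −0.73 over the 10 genes and −0.01 over all tested genes. All 10 passed the filter on low counts, so these counts and medians cover every one of them.

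The values of the single libraries show where the spread lay. Db + Ato10 replicate 1 was the lowest of the 6 libraries for all 10 genes, as it was for 31.4% of all tested genes. In median over the 10 genes, log2 CPM lay −2.26 from the Db mean in Db + Ato10 replicate 1, −0.66 in replicate 2 and 0.15 in replicate 3, while the Db libraries lay at −0.06, −0.24 and 0.33. The same distance over all tested genes was between −0.03 and 0.01 in every library. Thus 1 Db + Ato10 library was far below the Db libraries, another was moderately below them, and the last lay among them. The groups overlapped in CPM for all 10 genes, whereas 11.3% of all tested genes had every Db + Ato10 library below every Db library and 12% had every one above.

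**Figure D1:**
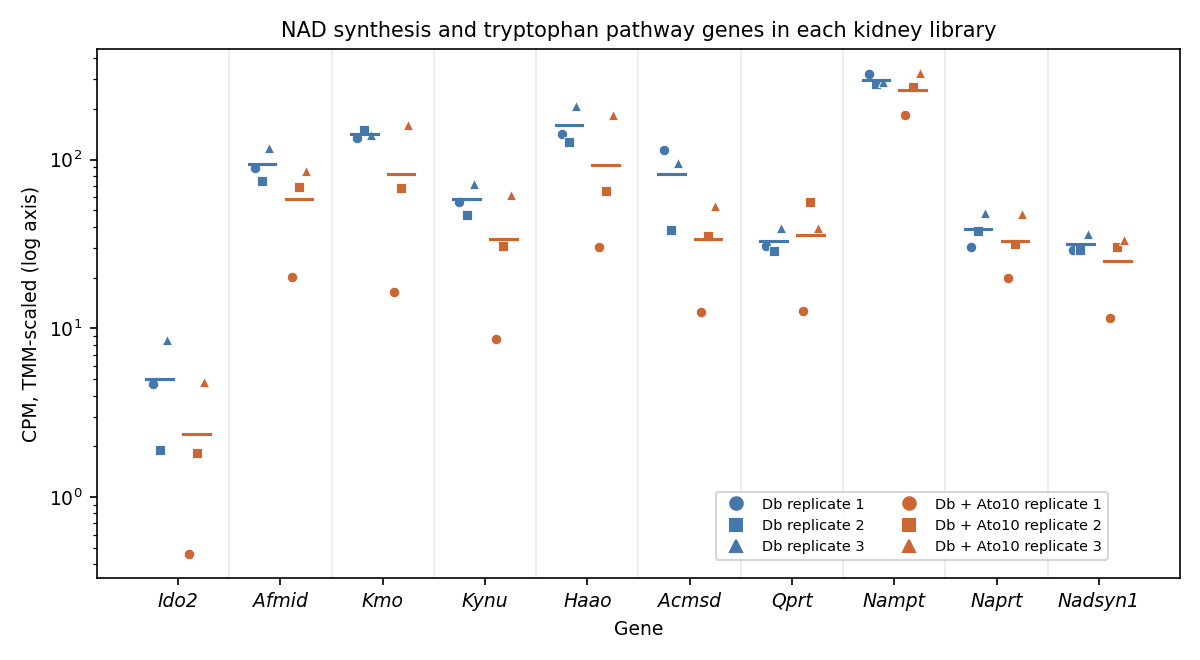
CPM of the 10 genes on a log axis, with 1 point per library, the shape giving the replicate and the color the group, and horizontal bars at the group means (n = 3 each). Db + Ato10 replicate 1 is the lowest point of every gene, and Qprt is highest in Db + Ato10 replicate 2.

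The levels of the 10 genes differed by nearly 2 orders of magnitude when compared per length, in TPM, the share of transcripts each library gave a gene after division by transcript length. In the Db group Haao had the highest TPM, 243 ± 64.0 (SD, n = 3), and its libraries lay above all libraries of Nampt, the next gene in the order at 113 ± 8.12 TPM. Kmo followed at 101 ± 5.80 TPM and overlapped with Nampt. Afmid at 72.1 ± 15.9 TPM, Acmsd at 64.4 ± 30.8 TPM, Qprt at 53.1 ± 9.26 TPM, Kynu at 42.8 ± 9.11 TPM and Naprt at 37.3 ± 8.58 TPM formed a middle range in which each overlapped with its neighbor. Nadsyn1 at 23.1 ± 2.46 TPM and Ido2 at 2.92 ± 1.86 TPM stood below the rest, with no overlap between them.

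In the Db + Ato10 group the mean TPM also ran from Haao at 134 ± 115 to Ido2 at 1.35 ± 1.21 (SD, n = 3), but every neighbor pair overlapped except Nadsyn1 and Ido2. The order within a library is not affected by the spread of the group. By TPM Haao ranked 1 in all Db libraries and in Db + Ato10 replicate 3, and it ranked 2 in Db + Ato10 replicates 1 and 2, where Nampt ranked 1. Kmo ranked 2 or 3 in the Db libraries and in Db + Ato10 replicate 3, 6 in Db + Ato10 replicate 1 and 5 in replicate 2. Qprt moved the other way in this order, from rank 5 or 6 in the Db libraries to rank 3 in Db + Ato10 replicates 1 and 2 and rank 5 in replicate 3. Ido2 ranked 10 in every library.

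The pathway opens with the cleavage of tryptophan by a dioxygenase. Ido2, the one tryptophan dioxygenase among the 10 genes, had 4.69, 1.91 and 8.48 CPM in Db replicates 1, 2 and 3 and 0.461, 1.82 and 4.80 CPM in Db + Ato10 replicates 1, 2 and 3. Its log2 fold change was −1.10 (SE 0.86) with an adjusted p of 0.502 by edgeR. It was low in every library, lowest in Db + Ato10 replicate 1, and Db replicate 2 and Db + Ato10 replicate 2 were alike. The other tryptophan dioxygenases, Tdo2 and Ido1, were at or near the detection floor, with at most 0.238 and 0.242 CPM, and were not tested. RNA for the first step was thus scarce in these kidneys, while RNA for the following steps was abundant.

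Afmid, the formamidase that turns formylkynurenine into kynurenine, had 89.4, 75.2 and 117 CPM in the Db libraries and 20.2, 68.9 and 85.1 CPM in the Db + Ato10 libraries, in replicate order. Its group means were 93.8 ± 21.1 and 58.1 ± 33.8 CPM (SD, n = 3), with a log2 fold change of −0.69 (SE 0.50) and an adjusted p of 0.473 by edgeR. Only Db + Ato10 replicate 1 was far below the Db range, at 21.6% of the Db mean, and replicate 3 lay inside it.

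Kmo, the monooxygenase of the outer mitochondrial membrane that hydroxylates kynurenine, had 135, 150.1 and 139.5 CPM in the Db libraries, the narrowest Db spread of the 10 genes on the log2 scale (SD 0.08, n = 3). In the Db + Ato10 libraries it had 16.4, 68.3 and 161 CPM. Db + Ato10 replicate 1 held 11.6% of the Db mean, the lowest share of any of the 9 genes with a Db mean over 10 CPM, replicate 2 held 48.3%, and replicate 3 exceeded every Db library. With means of 141 ± 7.94 and 81.9 ± 73.3 CPM (SD, n = 3), the log2 fold change was −0.79 (SE 0.70) and the adjusted p was 0.55 by edgeR.

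Kynu, the kynureninase that releases alanine and forms 3-hydroxyanthranilate, had 56.3, 47.1 and 72.0 CPM in the Db libraries and 8.63, 30.9 and 61.9 CPM in the Db + Ato10 libraries. Haao, the dioxygenase that opens the ring of 3-hydroxyanthranilate, had 143, 128 and 208 CPM in the Db libraries and 30.6, 65.2 and 184 CPM in the Db + Ato10 libraries. Both genes were below every Db library in Db + Ato10 replicates 1 and 2 and inside the Db range in replicate 3. Their log2 fold changes were −0.79 (SE 0.63) for Kynu and −0.78 (SE 0.62) for Haao, with adjusted p-values of 0.507 and 0.509 by edgeR.

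The product of Haao is the branch point of the pathway. It closes without an enzyme to quinolinate, the substrate of Qprt, unless Acmsd, a decarboxylase, draws it toward the glutarate branch. Acmsd had 114, 38.1 and 95.9 CPM in the Db libraries and 12.4, 35.3 and 53.3 CPM in the Db + Ato10 libraries. Db replicate 2 was well below the other Db libraries and below Db + Ato10 replicate 3, so the groups overlapped through that library. The means were 82.7 ± 39.6 and 33.7 ± 20.5 CPM (SD, n = 3), and the log2 fold change of −1.30 (SE 0.60) had an unadjusted p of 0.069 and an adjusted p of 0.322 by edgeR.

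Qprt, the phosphoribosyltransferase that commits quinolinate to NAD, had 30.8, 28.7 and 39.6 CPM in the Db libraries and 12.7, 55.8 and 39.2 CPM in the Db + Ato10 libraries. Of the latter, replicate 1 lay below the Db range at 38.5% of the Db mean, replicate 2 above it at 169%, and replicate 3 inside it at 119%. The means were 33.0 ± 5.77 and 35.9 ± 21.7 CPM (SD, n = 3), and the log2 fold change was 0.12 (SE 0.49) with an adjusted p of 0.904 by edgeR. Without Db + Ato10 replicate 1 it was 0.53 and without Db + Ato10 replicate 2 it was −0.34, so single libraries set its sign. Of the 10 genes, Qprt alone was higher in Db + Ato10 replicate 2 than in every other library.

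Because Acmsd draws off what would otherwise close to the substrate of Qprt, the ratio of Qprt to Acmsd was taken in TPM. This ratio was chosen after the values were seen and is given with no test. It was 0.559, 1.55 and 0.852 in the Db libraries and 2.10, 3.26 and 1.52 in the Db + Ato10 libraries. The lowest Db + Ato10 library lay just under the highest Db library, so the groups overlapped by 1 library of each group. The mean log2 ratio was −0.15 ± 0.74 in the Db group and 1.12 ± 0.55 in the Db + Ato10 group (SD, n = 3). Leaving out any 1 library gave differences between the groups of 0.92 to 1.66, beside 1.27 with all 6. This ratio describes RNA levels and not flux. Of 3 ratios computed, Qprt to Haao was 0.229, 0.236 and 0.202 in the Db libraries and 0.443, 0.911 and 0.225 in the Db + Ato10 libraries, where replicate 3 lay within the Db range. The last, Nampt to Qprt, was 2.46, 2.32 and 1.72 in the Db libraries and 3.47, 1.14 and 1.96 in the Db + Ato10 libraries, with replicate 1 above, replicate 2 below and replicate 3 within the Db range.

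Salvage is carried by Nampt, the nicotinamide phosphoribosyltransferase regarded as rate-limiting for NAD in most tissues. Nampt had 321, 279.9 and 287 CPM in the Db libraries and 185, 269 and 325 CPM in the Db + Ato10 libraries. At 296 ± 21.8 and 259.9 ± 70.6 CPM (SD, n = 3) its log2 fold change was −0.19 (SE 0.23), with an adjusted p of 0.669 by edgeR. Db + Ato10 replicate 1 held 62.5% of the Db mean, the highest share of the 9 genes there, and the other Db + Ato10 libraries held 90.9% and 109.9%.

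Nicotinate enters through Naprt, the nicotinate phosphoribosyltransferase, which had 30.2, 38.0 and 48.0 CPM in the Db libraries and 19.8, 31.6 and 47.3 CPM in the Db + Ato10 libraries. Nadsyn1, the synthetase that amidates the product of both the de novo and the nicotinate route to NAD, had 29.1, 29.3 and 36.3 CPM in the Db libraries and 11.5, 30.2 and 33.6 CPM in the Db + Ato10 libraries. For both genes Db + Ato10 replicate 1 alone lay outside the Db range. The log2 fold change was −0.24 (SE 0.34) for Naprt and −0.33 (SE 0.39) for Nadsyn1, with adjusted p-values of 0.713 and 0.648 by edgeR. Without Db + Ato10 replicate 1 the values of Nampt, Naprt and Nadsyn1 were 0.014, 0.035 and 0.023.

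Seen by their place in the pathway, the genes separated in 2 of the 3 Db + Ato10 libraries. This split was described after the values were seen and is given with no test. In Db + Ato10 replicate 1 the 6 enzymes of tryptophan degradation and its branch (Ido2, Afmid, Kmo, Kynu, Haao and Acmsd) lay between −3.09 and −2.18 log2 units from their Db means, and the 4 enzymes that build NAD (Qprt, Nampt, Naprt and Nadsyn1) lay between −1.44 and −0.68. In Db + Ato10 replicate 2 the first class lay between −1.26 and −0.42 and the other between −0.27 and 0.77. In both libraries every gene of the first class was farther below its Db mean than every gene of the other. This order holds for the 10 genes and not for every listed neighbor in the pathway. In Db + Ato10 replicate 2 Nmnat1, at −0.57, and Nadk2, at −1.18, enzymes of NAD and NADP synthesis, lay below Afmid, and in replicate 1 the aminotransferases Kyat1, at −0.28, and Got2, at −0.62, lay above all 4 NAD-building enzymes. In Db + Ato10 replicate 3 the ranges were −0.49 to 0.24 and 0.10 to 0.31 and overlapped.

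**Figure D2:**
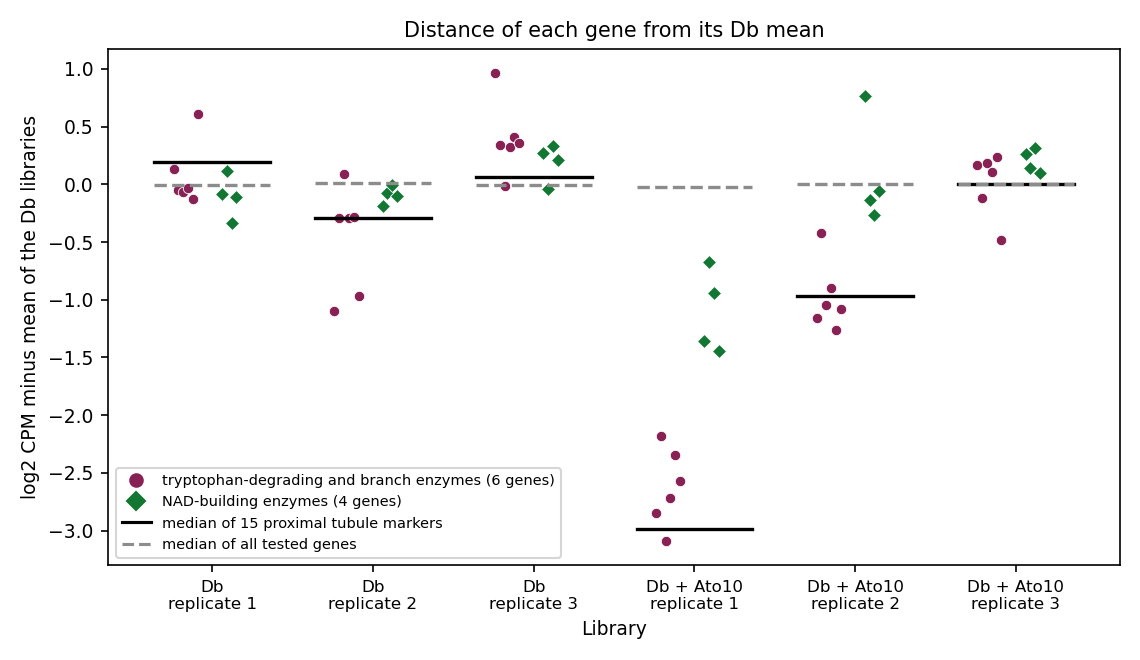
Distance of log2 CPM from the mean of the Db libraries for each of the 10 genes in each library, circles for the enzymes of tryptophan degradation and its branch and diamonds for the enzymes that build NAD. The solid line is the median of 15 proximal tubule markers, −2.99 in Db + Ato10 replicate 1, and the dashed line is the median of all tested genes.

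Markers of the proximal tubule, where these enzymes are known to be expressed, moved with the same libraries. All 15 of the 15 listed markers were measured, with Pck1 the most abundant and none at 0, and they summed to 32070.2, 22514 and 28511 CPM in the Db libraries and 3404, 16293 and 30353 CPM in the Db + Ato10 libraries. Their median distance from the Db mean was −2.99, −0.97 and 0.01 log2 units in Db + Ato10 replicates 1, 2 and 3, beside −2.64, −1.06 and 0.14 for the 6 tryptophan-degrading and branch enzymes and −1.15, −0.10 and 0.20 for the 4 NAD-building enzymes. All 15 had a fold change below 0, with 0 called and 0 at an unadjusted p under 0.05 by edgeR and 0 called by DESeq2. In whole-kidney RNA, fewer cells of a type and less RNA per cell cannot be told apart. The part of the proximal tubule markers in the values of the 10 genes was not tested.

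The 6 markers of the last proximal segment, led by Napsa, summed to 4203, 1918 and 4122 CPM in the Db libraries and 875, 2255 and 3669 CPM in the Db + Ato10 libraries, also lowest in replicate 1, with 4 of 6 below 0 in fold change and 0 called of the 5 to which DESeq2 gave an adjusted p. Napsa made up most of each sum, with 3870, 1754 and 3805 CPM in the Db libraries and 790, 1925 and 3347 CPM in the Db + Ato10 libraries. Of the 6 markers 4 were lowest in Db + Ato10 replicate 1, while Slc7a13 and Cyp7b1 were lowest in Db replicate 2. Markers of later tubule segments had another order of libraries. The 8 markers of the thick ascending limb, led by Umod, summed to 8729, 9517 and 8965 CPM in the Db libraries and 4813, 2345 and 6274 CPM in the Db + Ato10 libraries, where replicate 2 and not replicate 1 was lowest, with 8 of 8 below 0 and 5 called lower by DESeq2. The 7 collecting duct markers, led by Aqp2, summed to 819, 578 and 973 CPM in the Db libraries and 598, 334 and 621 CPM in the Db + Ato10 libraries, again lowest in replicate 2, with 7 of 7 below 0 and 2 called lower by DESeq2. No marker of these 3 lists was at 0 in a library, and their part in the values of the 10 genes was not tested.

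Markers of injured tubules and of infiltrating cells were high in Db + Ato10 replicates 1 and 2. The 7 tubular injury markers, led by Spp1, summed to 3000.1, 3517 and 1876 CPM in the Db libraries and 14861, 30373 and 9624 CPM in the Db + Ato10 libraries, with 7 of 7 above 0 in fold change and 6 called by DESeq2. The 10 macrophage and dendritic cell markers, led by Cd74, summed to 356, 532 and 408 CPM in the Db libraries and 5187, 4098 and 514 CPM in the Db + Ato10 libraries, with 10 of 10 above 0 and 9 called by DESeq2. Db + Ato10 replicates 1 and 2 were thus far above the Db libraries in both sums. Replicate 3 was above them in the injury sum and close to them in the macrophage sum. Cd74 alone gave 231, 306 and 234 CPM of the macrophage sum in the Db libraries and 258 CPM in replicate 3. The median macrophage marker lay 0.62 log2 units from its Db mean in replicate 3, and −0.66, 0.67 and 0.06 in the Db libraries. In 6 of the 10 every Db + Ato10 library lay above every Db library, beside 12% of all tested genes. Of the 7 neutrophil markers summed above, led by S100a9, Retnlg, Mmp8 and Ngp were at 0 in at least 1 library. In all 4 were tested and 4 of 4 were above 0. Retnlg passed the filter on low counts through the Db + Ato10 libraries alone, so the filter fixed its direction. DESeq2 gave an adjusted p to Csf3r alone, which it called, and none to S100a8, S100a9 and Retnlg.

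Lists of other cell types were read in the same way. The 7 fibroblast markers, led by Col1a2, summed to 137, 196 and 139 CPM in the Db libraries and 1622, 675 and 255 CPM in the Db + Ato10 libraries, with 7 of 7 above 0 and 3 called by DESeq2, which gave Dcn no adjusted p. The 9 T and B cell markers, led by Cd3g and with Ms4a1 at 0 in at least 1 library, summed to at most 7.19 CPM in a Db library and to 35.0, 19.3 and 4.10 CPM in the Db + Ato10 libraries, with 1 of 4 tested called higher by DESeq2. The 10 markers of squamous epithelium and urothelium were led by Krt5, with Krt14, Krt15, Krt6a and Krt13 at 0 in at least 1 library. They summed to 6.20, 3.38 and 4.2 CPM in the Db libraries and 168, 92.8 and 27.8 CPM in the Db + Ato10 libraries. DESeq2 called 3 of 5 tested as higher, namely Krt5, Krt14 and Krt15. These 3 passed the filter on low counts through the Db + Ato10 libraries alone, so the filter fixed their direction. Liver is the other main organ of tryptophan degradation, and its 6 markers, led by Serpina1a, summed to 301, 272 and 410.2 CPM in the Db libraries and 167, 435 and 663 CPM in the Db + Ato10 libraries. Serpina1a made up most of each sum, with 159, 234 and 378 CPM in the Db libraries and 143, 247 and 597 CPM in the Db + Ato10 libraries, and the markers differed in the library that was lowest. Alb had 31.1, 19.9 and 21.8 CPM in the Db libraries and 1.38, 1.49 and 17.6 CPM in the Db + Ato10 libraries, and Cps1 was at 0 in 5 of the 6 libraries. Fgb went the other way, with 1.19, 8.76 and 0.889 CPM in the Db libraries and 18.2, 53.2 and 39.0 CPM in the Db + Ato10 libraries. Of the liver markers 3 of 5 tested were above 0 in fold change, and Fgb was called higher by DESeq2, which gave Ttr no adjusted p. The part of any of these lists in the values of the 10 genes was not tested.

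The 10 genes were recomputed with each library left out in turn, and 0 were called by edgeR in each of these fits. Without Db replicate 1, 9 of 10 were below 0, with a median log2 fold change of −0.76. In that fit 49.5% of all tested genes were below 0, with a median of 0.003. The values of the 10 genes were −0.12 for Nampt, −0.38 for Naprt, −0.38 for Nadsyn1, −0.72 for Afmid, −0.81 for Kmo, −0.81 for Kynu, −0.84 for Haao, −0.99 for Acmsd, −1.14 for Ido2 and 0.080 for Qprt. Without Db + Ato10 replicate 1, 6 of 10 were below 0 and the median was −0.29, closer to 0 than with all libraries. Of all tested genes 49.8% were below 0 there, with a median of 0.002. In this fit the log2 fold change was −0.30 for Kmo, −0.33 for Kynu, −0.35 for Haao, −0.28 for Afmid, −0.60 for Ido2 and −0.90 for Acmsd. Qprt had an unadjusted p under 0.05 in the higher direction, as had 7.72% of the 13415 tested genes, with an adjusted p of 0.394 by edgeR. Without Db replicate 2, Acmsd had an unadjusted p under 0.05 as lower, as had 3.65% of the 13546 tested genes, with an adjusted p of 0.403 by edgeR. Without Db replicate 3, 0 of 10 had an unadjusted p under 0.05 by edgeR, against 1113 of all tested genes in either direction. The fit without Db + Ato10 replicate 2 also gave 0 of 10, against 1534 of all tested genes. Without Db + Ato10 replicate 3 the median was −1.32, beside −0.01 over all tested genes. That direction follows from leaving out the treated library in which the median of the 10 genes lay 0.15 log2 units from the Db mean. Acmsd was the lowest of the 10 in that library, at −0.49. In that fit 5 of 10 had an unadjusted p under 0.05 as lower (Haao, Acmsd, Kynu, Kmo and Ido2), as had 13.1% of the 13517 tested genes. It called 0 of 10, the smallest adjusted p being 0.054 by edgeR, against 2.23% of all tested genes called lower and 5.96% called higher.

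The other genes of the pathway were described from lists that were also chosen with earlier results of these data known. Of 58 listed genes, 57 matched a row and 47 were tested. None was called by edgeR, and 6 (12.8%) had an unadjusted p under 0.05 as higher and 3 (6.38%) as lower, near the 11.2% and 5.71% of all tested genes. DESeq2 called 3 (6.38%) as higher and 1 (2.13%) as lower, beside 5.17% and 1.29% of all tested genes. The fold change was below 0 for 32 of 47, and the median log2 fold change was −0.36. In 8 genes (17%) every Db + Ato10 library lay below every Db library, and in 5 (10.6%) every one lay above, beside 11.3% and 12% of all tested genes.

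Of the tested genes of tryptophan entry and side branches, 6 of 7 had a fold change below 0. Among them Aadat, an aminotransferase that turns kynurenine into kynurenate, had the highest mean TPM at 519, and it had 1177, 337 and 650.4 CPM in the Db libraries and 55.7, 175 and 694 CPM in the Db + Ato10 libraries. Like Kynu and Haao it was lowest in Db + Ato10 replicate 1 and inside the Db range in replicate 3. Its log2 fold change was −1.23 (SE 0.91) with an adjusted p of 0.483 by edgeR, and it ran from −2.64 without Db + Ato10 replicate 3 to −0.67 without Db replicate 1.

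After Acmsd, the glutarate branch leads to acetyl-CoA, and 4 of its 4 genes were below 0, with a median log2 fold change of −0.69. Gcdh, glutaryl-CoA dehydrogenase, had the highest mean TPM of the branch at 267, and had 416, 356 and 416 CPM in the Db libraries and 114, 251 and 399.99 CPM in the Db + Ato10 libraries. The branch thus lay in the same order of libraries as Acmsd itself in the Db + Ato10 group, while Db replicate 2 was not as low for Gcdh as it was for Acmsd. Its log2 fold change was −0.63 (SE 0.42), and the adjusted p was 0.446 by edgeR. Without Db + Ato10 replicate 1 it was −0.28, and without replicate 3 of that group −1.11.

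Among the other genes of NAD and NADP synthesis, 4 of 5 tested were below 0. Nadk2, the mitochondrial NAD kinase, had 116, 106 and 102 CPM in the Db libraries and 39.2, 47.7 and 94.6 CPM in the Db + Ato10 libraries. All 3 Db + Ato10 libraries were below the lowest Db library, replicate 3 by little. The log2 fold change was −0.84 (SE 0.33) with an unadjusted p of 0.041 and an adjusted p of 0.281 by edgeR, and −0.60 without Db + Ato10 replicate 1 and −1.31 without replicate 3. Nadk, the cytosolic NAD kinase and the gene of the list with the highest mean TPM at 116, had 207, 165 and 194 CPM in the Db libraries and 241, 224 and 198 CPM in the Db + Ato10 libraries, which overlapped, and its log2 fold change was 0.23 (SE 0.16) with an adjusted p of 0.465 by edgeR, from 0.14 to 0.31 with single libraries left out.

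Genes of NAD use and nicotinamide clearance were the one pathway list with a median above 0, at 0.25, and 8 of its 14 tested genes were above 0. Cd38, an ectoenzyme that degrades NAD and that leukocytes also express, had 9.30, 8.50 and 6.22 CPM in the Db libraries and 162, 23.9 and 11.4 CPM in the Db + Ato10 libraries. Bst1, its close relative, had 15.4, 11.8 and 16.9 CPM in the Db libraries and 158, 30.2 and 17.9 CPM in the Db + Ato10 libraries. Both were highest in Db + Ato10 replicate 1, the library with the lowest values of the 10 genes and the highest neutrophil markers, and in replicate 3 both were close to the highest Db library. The log2 fold change was 3.04 (SE 0.99) for Cd38 and 2.22 (SE 0.81) for Bst1, with adjusted p-values of 0.239 and 0.262 by edgeR and 0.011 and 0.045 by DESeq2 with all 6 libraries. Without Db + Ato10 replicate 1 the log2 fold changes were 1.15 and 0.72, with adjusted p-values of 0.347 and 0.381 by edgeR.

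Nnmt, the methyltransferase that removes nicotinamide from salvage, was low throughout, with 1.43, 1.39 and 0.646 CPM in the Db libraries and 6.19, 5.81 and 1.89 CPM in the Db + Ato10 libraries. All Db + Ato10 libraries exceeded all Db libraries. Its log2 fold change was 2.00 (SE 0.56) with an adjusted p of 0.239 by edgeR and 0.024 by DESeq2. Parp1, the main poly(ADP-ribose) polymerase, had 50.7, 44.2 and 49.0 CPM in the Db libraries and 30.6, 36.2 and 41.7 CPM in the Db + Ato10 libraries, so all treated libraries were lower, by a log2 fold change of −0.41 (SE 0.15) with an adjusted p of 0.272 by edgeR. Sirt2, a cytosolic deacetylase, had the highest mean TPM of this list at 109, and had 119, 116 and 109 CPM in the Db libraries and 121, 99.9 and 106 CPM in the Db + Ato10 libraries, which overlapped.

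**Figure D3:**
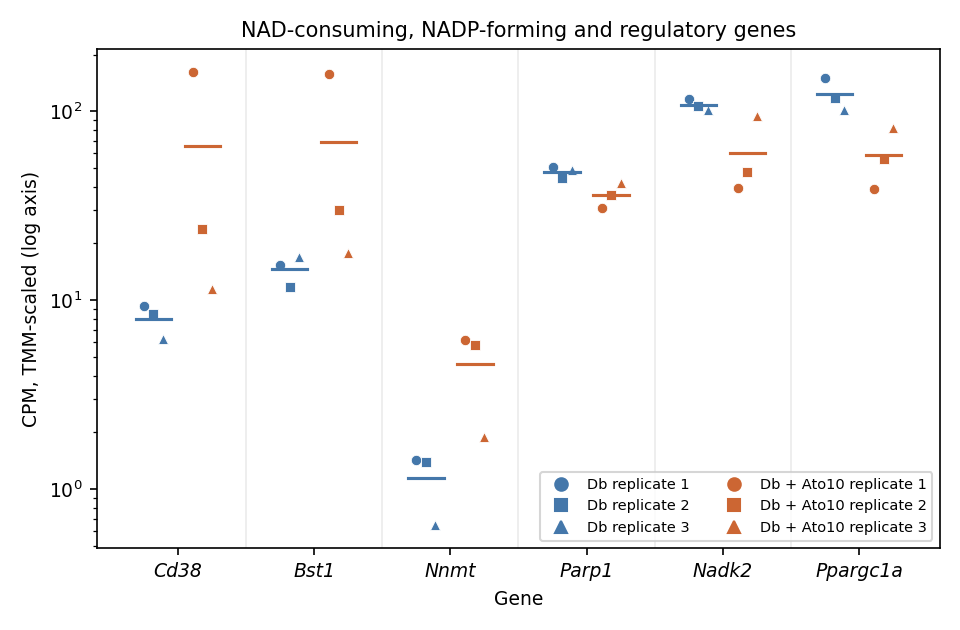
CPM on a log axis of the 6 genes of the pathway lists whose groups did not overlap and whose unadjusted p was under 0.05, with 1 point per library and bars at the group means (n = 3 each). Cd38 and Bst1 reach 162 and 158 CPM in Db + Ato10 replicate 1, and Db + Ato10 replicate 3 lies nearest the Db libraries in all 6 genes.

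Carriers of tryptophan and of NAD precursors were below 0 in 8 of 10 tested genes. Cltrn, collectrin, which brings the neutral amino acid carrier Slc6a19 to the brush border, had the highest mean TPM of the list at 1509. It had 1385, 1079 and 1274 CPM in the Db libraries and 242, 983 and 1117 CPM in the Db + Ato10 libraries. Db + Ato10 replicate 1 was far below the others, which were near each other. The log2 fold change was −0.68 (SE 0.54) with an adjusted p of 0.512 by edgeR. It was −0.24 when Db + Ato10 replicate 1 was left out and −1.02 when replicate 3 was.

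Regulators gave 4 of 7 tested genes below 0. Ppargc1a, a coactivator of mitochondrial biogenesis described as a regulator of de novo NAD synthesis in the kidney, had 149.8, 118 and 101 CPM in the Db libraries and 38.7, 56.0 and 81.8 CPM in the Db + Ato10 libraries. Every Db + Ato10 library was below every Db library. The log2 fold change was −1.06 (SE 0.30) with an adjusted p of 0.239 by edgeR and 0.035 by DESeq2. Hnf4a, a nuclear receptor of proximal tubule and liver cells, had the highest mean TPM of the list at 251, and had 873, 709.5 and 823 CPM in the Db libraries and 203, 459 and 806 CPM in the Db + Ato10 libraries, with a log2 fold change of −0.71 (SE 0.47) and an adjusted p of 0.443 by edgeR. Leaving out Db + Ato10 replicate 1 gave −0.34 for Hnf4a, and leaving out replicate 3 gave −1.27.

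The genes whose profile over the 6 libraries was most like that of Qprt and of Nampt were sought among 10021 other tested genes with a mean of at least 10 CPM. Likeness was the mean absolute difference between the log2 CPM profiles, each centred on its own mean. Nearest to Qprt were Gk5, a glycerol kinase family gene, at 0.08, Abcg2, an efflux transporter of urate and drugs, at 0.15, and Ifit3b, an interferon-induced gene with a close copy in the genome that makes its count uncertain, at 0.15. Abcg2 had 359, 322 and 378 CPM in the Db libraries and 125, 436 and 362 CPM in the Db + Ato10 libraries, and so shared the low replicate 1 and the high replicate 2 of Qprt. Among the 10 genes the nearest to Qprt was Nadsyn1, at 0.21 and rank 37. Nearest to Nampt were Foxred1 and Sco2, assembly factors of respiratory chain complexes, and Tm9sf2, a membrane protein of endosomes and Golgi, each at 0.04.

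The transcript table divided the 10 genes among 36 transcripts. Acmsd, Kmo, Nampt, Naprt and Qprt each had 1, so their gene and transcript values were the same reads. Of the rest, NM_025325.2 carried 89.6% of the TPM of Haao, NM_027827.3 carried 83.6% of Afmid, NM_145949.2 carried 66.6% of Ido2, NM_030221.2 carried 61.1% of Nadsyn1 and NM_027552.2 carried 36.4% of Kynu, over all libraries. The share of the main Nadsyn1 transcript was 25.8%, 52.7% and 79.7% in Db + Ato10 replicates 1, 2 and 3, against 54.9% to 70.7% in the Db libraries. That of the main Kynu transcript was 31.4%, 26.0% and 30.9%, against 39.1% to 41.2% in the Db libraries. For Ido2 the share was 48.9%, 100% and 84.7% in the Db libraries and 0%, 0% and 73.2% in the Db + Ato10 libraries, on at most 87.0 estimated counts. Shares of transcripts that overlap are estimates, and in Db + Ato10 replicate 1 those of Nadsyn1 and Kynu rest on 55.4 and 55.7 estimated counts.

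Of the 36 transcripts 27 were tested, 22 were below 0 and 0 were called by edgeR, as were 0% of the 30175 transcripts tested in all. The share of all tested transcripts below 0 is not given here, so the 22 is a count only. DESeq2 called 1 as lower, beside 1.05% of all tested transcripts. It was XM_006534249.2 of Afmid, with 14.0, 68.5 and 35.0 estimated counts in the Db libraries and 0 in all Db + Ato10 libraries. This transcript passed the filter on low counts through the Db libraries alone. The filter thus fixed its direction, and its call is a description only. XM_006534249.2 carried 2.27% of the TPM of Afmid over all libraries, and the division of reads among the 8 Afmid transcripts is an estimate. The main Afmid transcript had 975, 685 and 1275 estimated counts in the Db libraries and 229.7, 815 and 887 in the Db + Ato10 libraries, and those groups overlapped.

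Since most of the 10 genes were low in the same library, their promoters were read for motifs of kidney and liver factors. RefSeq promoter windows of build GRCm38.p6, from 250 bases before to 50 after the gene start, were present for 7 of the 10 genes (Acmsd, Kmo, Qprt, Nadsyn1, Afmid, Nampt and Haao). On either strand the HNF1 half-site GTTAAT was in 1 of 7 windows, that of Haao, and in 7.1% of all 32851 windows. The HNF4A site CAAAGTCCA was in 0 of 7 and in 0.475% of all, and its shorter form CAAAGT, contained in the longer one, was in 1 of 7, that of Kmo, and in 14.4% of all. The xenobiotic response core GCGTG, bound by the receptor for kynurenines, was in 3 of 7 (Acmsd, Nampt and Haao) and in 32.4% of all. With 7 windows these counts are descriptions, and a match is not a bound site.

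The 250 bases before the gene start are shown for Kmo and Haao, the genes with an HNF4A or HNF1 match, and for Qprt, which had no match to any of these motifs. Afmid and Nadsyn1 also had no match, and Acmsd and Nampt had none to an HNF motif. The 3 sequences shown lie at chr1:175631943-175632192 on the plus strand, chr17:83846791-83847040 on the minus strand and chr7:127122030-127122279 on the minus strand of GRCm38.p6, and are printed 5′ to 3′ along the gene with HNF matches in capitals.
Kmo: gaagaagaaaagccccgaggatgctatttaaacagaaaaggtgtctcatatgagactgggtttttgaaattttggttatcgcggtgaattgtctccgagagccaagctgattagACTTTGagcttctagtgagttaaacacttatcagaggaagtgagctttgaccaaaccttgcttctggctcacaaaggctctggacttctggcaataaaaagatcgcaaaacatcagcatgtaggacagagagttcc
Haao: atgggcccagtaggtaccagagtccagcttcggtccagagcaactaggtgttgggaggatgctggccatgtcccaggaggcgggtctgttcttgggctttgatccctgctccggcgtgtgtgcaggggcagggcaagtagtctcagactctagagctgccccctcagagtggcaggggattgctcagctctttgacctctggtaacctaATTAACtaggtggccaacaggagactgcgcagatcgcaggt
Qprt: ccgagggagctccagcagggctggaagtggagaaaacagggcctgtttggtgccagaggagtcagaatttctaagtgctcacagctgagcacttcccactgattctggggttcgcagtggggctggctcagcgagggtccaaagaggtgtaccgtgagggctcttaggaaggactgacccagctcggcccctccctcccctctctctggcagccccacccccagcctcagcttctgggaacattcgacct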

How the data were processed

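Kidney RNA was sequenced on the BGISEQ-500 platform in 3 Db and 3 Db + Ato10 libraries. The authors deposited estimated counts (expected counts), FPKM and TPM per gene and per transcript. The submitters' processing notes name HISAT, Bowtie2 2.2.5 and build mm9, but some transcript identifiers belong to a later RefSeq annotation, so the build used is uncertain. The counting program and the use of strand are not given in the sources used here, so reads of overlapping genes could not be told apart. Of the deposited gene counts 91.3% were exactly whole as written, and no library pair was identical. Counts were rounded, and a gene entered the test when 3 or more libraries held 10 counts or more (13679 of 17684 genes). Tests were made with edgeR 4.0.16 (quasi-likelihood F test, TMM) in R 4.3.3, with Benjamini-Hochberg adjustment over all tested genes. CPM were TMM-scaled, with a prior count of 2 for log2. Calls needed a fold change over 1.5, as in the study's methods, and an adjusted p under 0.05. The code was tested on simulated data. Alternatives were DESeq2 1.42.0, limma 3.58.1 on voom, FPKM and TPM values, other filters and normalization, the replicate block, and each library left out, the last with edgeR only. For limma, FPKM and TPM were taken as log2 after adding 1. The members and lists were chosen with earlier results of these data known. Of the pathway lists, genes were named if their groups did not overlap and their unadjusted p was under 0.05, or if their mean TPM was the highest of a list. Outside this rule, Kyat1, Got2 and Nmnat1 were named as exceptions to the order of the 10 genes. Tdo2 and Ido1 were named as the other tryptophan dioxygenases. Nothing in the labels says whether libraries came from separate mice, so p-values measure the spread between these libraries. Xist and Tph2 matched no row and were not used here.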

Additional observations from a re-analysis of the deposited data

How the results depend on the processing

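Over all alternatives 0 of the 10 genes were called. Of 139 recomputed log2 fold changes of the 10 genes, 131 kept their direction and 8 changed sign. Qprt was 0.12 and became −0.12 with limma-voom, −0.10 with replicate number as a block (replicate block), −0.080 on FPKM and −0.19 on TPM, and it ran from −0.34 (without Db + Ato10 replicate 2) to 0.53 when libraries were left out. In the same way Nampt ran from −0.38 to 0.014, Nadsyn1 from −0.60 to 0.023 and Naprt from −0.59 to 0.035, above 0 without Db + Ato10 replicate 1. The other 6 were below 0 whichever library was left out, with ranges of −1.79 to −0.90 for Acmsd, −1.74 to −0.30 for Kmo, −1.73 to −0.35 for Haao, −1.56 to −0.33 for Kynu, −1.07 to −0.28 for Afmid and −2.13 to −0.49 for Ido2. The lowest value of each was without Db + Ato10 replicate 3, and the highest was without Db + Ato10 replicate 1, or for Ido2 without Db replicate 3. With all 6 libraries and other models, filters or scales the ranges were −1.42 to −1.27 for Acmsd, −1.36 to −0.78 for Kmo, −1.21 to −0.76 for Haao, −1.21 to −0.78 for Kynu, −0.97 to −0.68 for Afmid, −1.45 to −0.57 for Ido2, −0.49 to −0.32 for Nadsyn1, −0.30 to −0.17 for Nampt and −0.37 to −0.22 for Naprt. The limma fits and the replicate block gave Kmo, Kynu and Haao lower values than the main fit did, and Ido2 was nearest 0 on FPKM. Before log2, 1 was added to FPKM and TPM, an addition that weighs most on low genes such as Ido2, which had at most 4.84 TPM. The cause of these changes was not tested. Ido2 gave no value when at least 10 counts were needed in every library.

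By edgeR 0 of all genes and 0 of the pathway list genes were called, with 2314 and 9 at an unadjusted p under 0.05. DESeq2 called 884 genes, 4 of the pathway list genes and 1 of the transcripts of the 10 genes. Leaving out libraries gave 0 to 1106 called genes and 0 to 7 pathway list genes, the highest without Db + Ato10 replicate 3 and 0 without any other. The cause was not tested.

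With replicate number as a block, 0 of the 10 genes and 0 of all genes were called. Libraries of the same number deviated from their group means with correlations over genes of −0.15, 0.06 and 0.21. Pairs of unlike number ran from −0.37 to 0.31. With 3 libraries per group these correlations cannot show whether libraries of the same number shared a batch. Depth limits Ido2 and Nnmt, which rest on few counts.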
